A study of Mus musculus with 25 samples.

Results

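The natriuretic peptide system of the atrium was followed through 7 genes chosen by name: the peptide genes Nppa and Nppb, the receptor genes Npr1, Npr2 and Npr3, and the genes of 2 proteases, Corin and Mme. All 7 were found among the 14457 genes analysed, and all 7 passed the filter on low values. RNA-seq had been made from atria of adult mice aged 60 to 90 days that received no treatment. Of the 13 knockout libraries, 5 are labelled male (KM01, KM03, KM05, KM07 and KM13) and 8 female (KF14 to KF21). Of the 12 wild-type libraries, 7 are labelled male (WM1 to WM7) and 5 female (WF8 to WF12). The labels give the knockout gene, Pam, which encodes the enzyme that amidates secreted peptides, but no strain, allele or driver of a deletion, and they do not say whether each library is 1 animal, so the spread between libraries may be partly technical. Pam was at 295 to 520 CPM (the reads of a gene scaled to the total of its library) in knockout libraries and at 1409 to 6245 CPM in wild-type libraries, so knockout atria still held Pam mRNA.

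Atrial muscle cells store atrial natriuretic peptide (from Nppa) and B-type natriuretic peptide (from Nppb) in secretory granules and release them when the wall is stretched. The peptides lower blood pressure and promote the loss of salt and water by the kidney. Corin is a protease of the muscle cell surface that cuts the Nppa precursor into its active form. The receptor encoded by Npr1 is a guanylyl cyclase that answers both peptides by making cyclic GMP, Npr2 encodes the related cyclase that prefers C-type natriuretic peptide, and Npr3 encodes a receptor that takes the peptides up and clears them. Mme encodes neprilysin, a membrane protease that degrades them.

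Several libraries differed in ways that their group did not give. Bmp10, a gene of right atrial muscle, was under 1000 CPM in 10 libraries (0.433 to 669 CPM, called Bmp10-low here) and at 1999 to 7597 CPM in the other 15 (Bmp10-high). Bmp10-low libraries were 5 of 13 knockouts (KM01, KF14, KF16, KF18 and KF19) and 5 of 12 wild types (WM1, WM2, WM3, WF10 and WF12). Library names that begin with LA or RA mark 12 libraries, and 2 of these went against the pattern of the rest: KF17 (LA) had 4811 CPM of Bmp10 and KF18 (RA) had 444 CPM. The library KM01 and the library WF10 stood apart. They were the least deep (2494461 and 2246887 reads, against a highest of 8098602), and mitochondrial genes gave 18.6% of CPM in KM01 and 30.4% in WF10, against 7.74% to 13.025% elsewhere. The 4 defining markers of atrial muscle (Myl7, Myl4, Sln and Tbx5) were measured in every library, with a summed 2940 CPM in WF10 and 8497 to 17884 CPM in the other 24. The 4 measured markers of ventricular muscle summed to 5063 CPM in WF10, the highest of all, and to 247 CPM in KM01.

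Nppa and Nppb lie on mouse chromosome 4 with 13516 bases between them. Nppa spans chr4:148000722-148002079 and Nppb chr4:147985788-147987205, both on the plus strand (GENCODE M21 on GRCm38). Nppa had the 45th highest mean CPM of all genes analysed (1365 ± 451 CPM, SD, n = 25) and Nppb the 128th (759 ± 865 CPM, SD, n = 25). Since this pair shared its extreme libraries in CPM, as described below, the 250 bases before each RefSeq start (GRCm38.p6) are given, 5′ to 3′. Capitals mark matches on either strand to GATA (GATAA), NKX2-5 (CAAGTG), T-box (AGGTGT), TEAD (CATTCC) and TATA box (TATAAA) motifs, none of which overlapped another.
Nppa, chr4:148000472-148000721, plus strand: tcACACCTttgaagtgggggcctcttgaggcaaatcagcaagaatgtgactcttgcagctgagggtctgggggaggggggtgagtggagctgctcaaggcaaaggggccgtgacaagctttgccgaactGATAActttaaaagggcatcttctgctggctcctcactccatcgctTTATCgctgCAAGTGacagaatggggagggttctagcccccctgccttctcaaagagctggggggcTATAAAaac
Nppb, chr4:147985650-147985899, plus strand: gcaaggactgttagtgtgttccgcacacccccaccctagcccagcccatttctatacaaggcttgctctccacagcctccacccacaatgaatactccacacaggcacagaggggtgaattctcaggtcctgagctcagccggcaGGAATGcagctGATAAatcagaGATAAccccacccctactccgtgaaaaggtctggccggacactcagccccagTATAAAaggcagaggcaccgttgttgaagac

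The Nppa window held 2 GATA matches, 1 on each strand, with an NKX2-5 match 66 bases before the start, a T-box match and a TATA box. The Nppb window held 2 GATA matches on the same strand, 94 and 83 bases before the start, with a TEAD match and a TATA box. GENCODE places the start of Nppb inside this window. Of 32851 windows of the same length in the RefSeq table, 22.6% held the GATA letters, 11.6% the NKX2-5 letters, 11.8% the T-box letters, 12.6% the TEAD letters and 12.4% the TATA letters. These matches describe the letters and are not measured binding sites.

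Nppa had a higher median in knockouts than in wild type in both sexes, but the groups overlapped and the test did not call a difference. In knockout males it was at 2981 CPM in KM01, 1864 in KM03, 1591 in KM13, 1431 in KM05 and 1128 in KM07, against 1018 to 1780 CPM with a median of 1211 CPM in wild-type males. Knockout females ran from 863 to 1761 CPM with a median of 1446 CPM, against 1290, 1281, 1179, 966 and 533 CPM in wild-type females. Nppa was thus above every wild-type female in 6 of 8 knockout females, and above every wild-type male in 2 of 5 knockout males. Differences below are log2 of CPM plus 1, knockout minus wild type, with the standard error (SE) of limma, a linear model fitted over all genes, and Benjamini-Hochberg adjusted p-values. Nppa differed by 0.45 ± 0.24 in males (limma adjusted p = 0.436) and by 0.32 ± 0.21 in females (limma adjusted p = 0.853). The difference was 0.24 in males without KM01 and 0.15 in females without WF10. It was 0.15 in males with a term for the name set, which leaves KM13 as the only knockout male. In females the median of all genes was itself at 0.12, a shift that rescaling by median-ratio size factors took away, and Nppa lay 0.20 above it.

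Nppb had a 90.8-fold range over the 25 libraries and a 5.68-fold range over the 23 without KM01 and WF10, where Mme had 21.9-fold and 18.7-fold ranges. In knockout males Nppb was at 4686 CPM in KM01, 1319 in KM07, 848 in KM13, 761 in KM03 and 393 in KM05, against 453 to 1207 CPM with a median of 636 CPM in wild-type males. In knockout females it ran from 345 to 718 CPM with a median of 449 CPM, against 744, 630, 464, 232 and 51.6 CPM in wild-type females, the last value from WF10. The means for knockout males (1601 ± 1756 CPM, SD, n = 5) and wild-type females (424 ± 283 CPM, SD, n = 5) therefore each leaned on 1 library. Nppb differed by 0.67 ± 0.50 in males (limma adjusted p = 0.597) and by 0.54 ± 0.51 in females (limma adjusted p = 0.855). Without KM01 the difference in males was 0.14, and without WF10 that in females was -0.04.

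In CPM the same 2 libraries bounded both peptide genes: KM01 had the highest Nppa and Nppb, and WF10 the lowest of each. In KM01 the other 5 genes were at their lowest of all 25 libraries: Npr1 at 14.4 CPM, Npr2 at 26.5, Npr3 at 146, Corin at 45.7 and Mme at 1.60 CPM, the last from 4 reads. In WF10 Nppa was at 533 CPM and Nppb at 51.6 CPM, while Npr1 (15.6 CPM) and Npr3 (180 CPM) were the lowest after KM01. Median-ratio size factors, relative to CPM, were 0.63 in WF10, 0.84 in KM01, 1.15 in KF21 and 1.18 in KM03. The place of WF10 as lowest for Nppa therefore depends on the scaling. So does that of KM01 as lowest for Npr2 and Mme. Nppa and Nppb lay at opposite ends in KM01 and WF10, and so did Uchl1, the 1 measured neuron marker. Uchl1 was at 18.4 CPM in KM01 and 1.78 CPM in WF10, against 3.24 to 11.7 CPM elsewhere. Leukocyte markers summed to 273 CPM in KM01 and 124 CPM in WF10, against 68.5 to 229 CPM elsewhere. Smooth muscle and pericyte markers summed to 658 CPM in KM01 and 1023 CPM in WF10, against 433 to 1006 CPM elsewhere. The following markers of other cells went the same way in both. The 5 erythroid markers summed to 5477 CPM in KM01 and to 3531 CPM in WF10, against 363 to 2939 CPM elsewhere. The 5 markers of endothelium and endocardium summed to 778 CPM in KM01 and to 393 CPM in WF10, against 903 to 1333 CPM elsewhere. Epicardial markers (6 of 6 measured) summed to 153 CPM in KM01 and to 132 CPM in WF10, against 241 to 1108 CPM elsewhere, and none of the epicardial, endothelial or erythroid markers was at 0 in KM01 or WF10. The part of these cells, and of depth and mitochondrial reads, in the peptide levels was not tested. In bulk tissue, fewer cells of a type and less RNA per cell cannot be told apart.

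**Figure D1:**
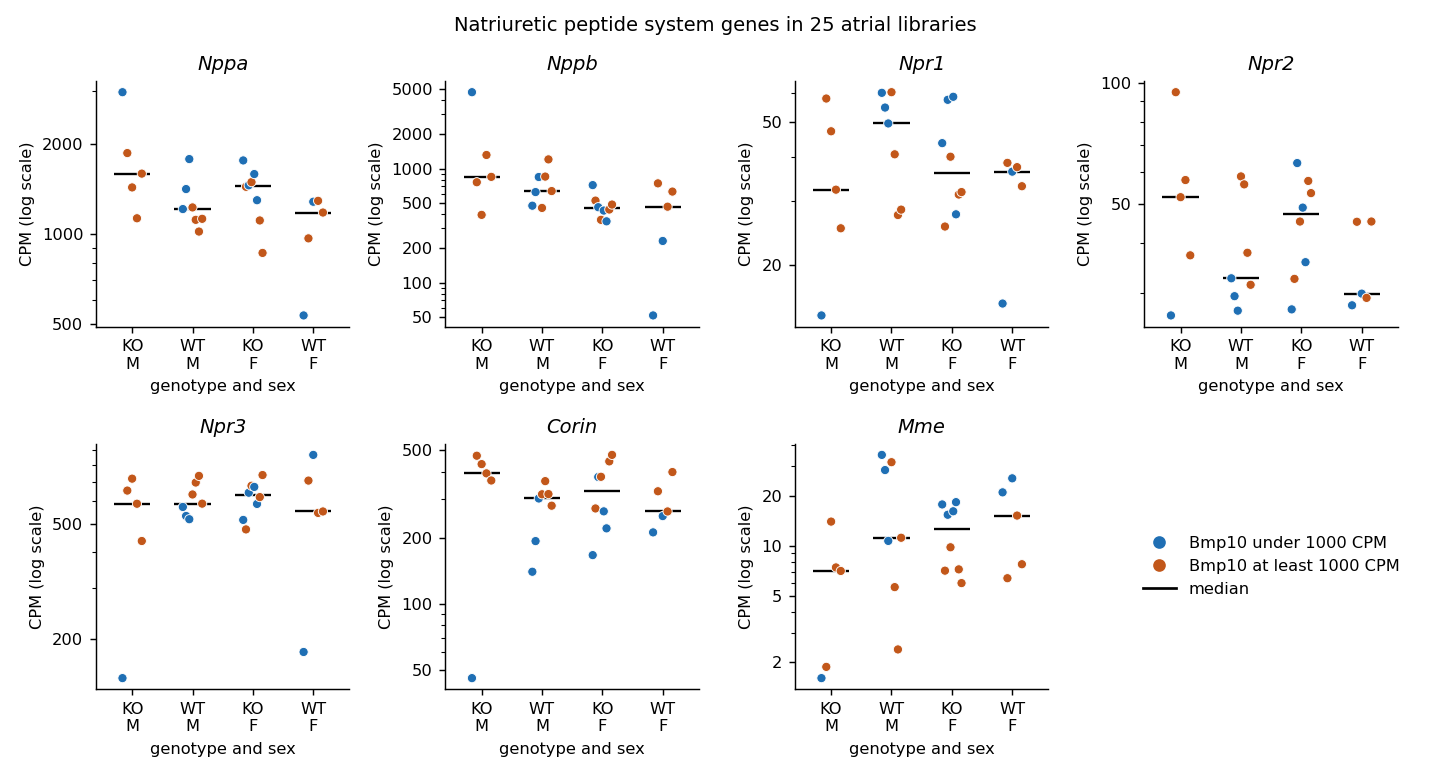
CPM of each of the 7 genes (log scale) in knockout (KO) and wild-type (WT) males (M) and females (F). Each point is a library, coloured by Bmp10 class, and the black line is the group's median. Every knockout group overlaps its wild-type group, and KM01 is the highest point for Nppa and Nppb and the lowest for the other 5 genes.

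The ratio of Nppb to Nppa in CPM had a median of 0.407 over the 25 libraries and ran from 0.0968 in WF10 to 1.57 in KM01. Medians were 0.533 in knockout males (0.275 to 1.57) and 0.475 in wild-type males (0.369 to 1.19), and 0.340 in knockout females (0.239 to 0.561) and 0.360 in wild-type females (0.0968 to 0.770). In CPM the peptide genes thus shared their extremes but not their order in between. In the 15 Bmp10-high libraries, which leave out KM01 and WF10, they showed no relation past the test (Pearson r = -0.17, permutation p = 0.539, and Spearman rho = -0.19, permutation p = 0.493, adjusted over 21 pairs p = 0.708 and p = 0.674). Pearson r was 0.20 within the 6 libraries named LA or RA and 0.14 within the 6 named CGI, and -0.48 without KM03 and KF21, the farthest from the median of Nppa.

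**Figure D2:**
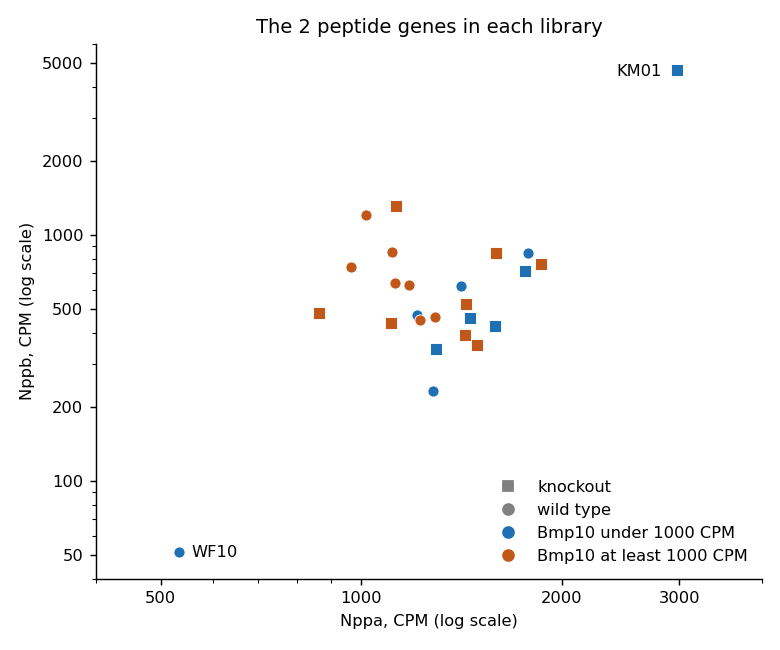
Nppb against Nppa in each of the 25 libraries, both in CPM on log scales, with squares for knockouts, circles for wild type and colours for the Bmp10 class. KM01 (2981 and 4686 CPM) and WF10 (533 and 51.6 CPM) lie at opposite corners, apart from the other 23 libraries.

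Of the 3 receptor genes, Npr3 was the most abundant. Npr3 (chr15:11839896-11907287, minus strand) was at 585 ± 159 CPM, Npr2 (chr4:43631935-43651244, plus strand) at 43.3 ± 16.01 CPM and Npr1 (chr3:90450591-90465866, minus strand) at 39.0 ± 13.8 CPM (SD, n = 25 each). Per kilobase of exon, which allows genes to be compared, the medians over libraries were 62.7 CPM for Npr3, 8.11 CPM for Npr2 and 7.82 CPM for Npr1. Npr2 was above Npr1 in 17 of 25 libraries, so this pair did not differ beyond its spread, and Npr3 was far above both in all 25. The cyclase Npr1 stood at 0.0374 to 0.105 of Npr3 in CPM.

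Npr1, the cyclase that binds both peptides, had a lower median in knockouts than in wild type in males, and medians close together in females. In knockout males it was at 58.1, 47.1, 32.4, 25.3 and 14.4 CPM, against 27.5 to 60.5 CPM with a median of 49.5 CPM in wild-type males. In knockout females it was at 25.5 to 58.7 CPM with a median of 35.9 CPM, against 38.4, 37.4, 36.3, 33.1 and 15.6 CPM in wild-type females. Npr1 was below every wild-type male in 2 of 5 knockout males and above every wild-type female in 4 of 8 knockout females. The differences were -0.45 ± 0.30 in males (limma adjusted p = 0.531) and 0.17 ± 0.26 in females (limma adjusted p = 0.909), and the value in females was -0.00097 without WF10. The female difference minus the male one, fitted with a term for the name set, was 1.18 ± 0.55 (limma unadjusted p = 0.0421, adjusted p = 0.530), where the median of all genes was 0.25. With that term the male side rests on KM13 alone, and without it the difference was 0.75 (limma adjusted p = 0.523).

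Npr2, the cyclase for C-type peptide, was higher in knockout medians of both sexes, without a call. In knockout males it was at 94.9 CPM in KM03, 57.4 in KM07, 52.1 in KM05, 37.3 in KM13 and 26.5 in KM01, against 27.2 to 58.6 CPM with a median of 32.7 CPM in wild-type males. In knockout females it ran from 27.4 to 63.3 CPM with a median of 47.2 CPM, against 45.3, 45.2, 30.0, 29.3 and 28.0 CPM in wild-type females. Above every wild-type library of their sex lay 4 of 8 knockout females and 1 of 5 knockout males, KM03, while 3 knockout males lay inside the wild-type range and KM01 below it. The differences were 0.38 ± 0.26 in males (limma adjusted p = 0.559) and 0.36 ± 0.26 in females (limma adjusted p = 0.853). KM13 is the only knockout male left by a term for the name set, and the difference in males was then 0.05.

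The clearance receptor Npr3 had close medians in both genotypes. In knockout males it was at 718, 653, 588, 437 and 146 CPM, against 520 to 734 CPM with a median of 589 CPM in wild-type males. In knockout females it ran from 479 to 739 CPM with a median of 631 CPM, against 868, 707, 553, 547 and 180 CPM in wild-type females. Leaving out KM01 and WF10, the means were 599 ± 121 CPM (SD, n = 4) in knockout males and 611 ± 80.9 CPM (SD, n = 7) in wild-type males, and 617 ± 86.5 CPM (SD, n = 8) in knockout females and 669 ± 152 CPM (SD, n = 4) in wild-type females. Npr3 differed by -0.44 ± 0.32 in males (limma adjusted p = 0.574), which was -0.04 without KM01. In females it differed by 0.29 ± 0.32 (limma adjusted p = 0.874), which was -0.07 without WF10.

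Corin (chr5:72300025-72504473, minus strand), the activating protease, had a higher median in knockouts of both sexes. Among knockout males it was at 473, 433, 393 and 365 CPM in KM03, KM05, KM07 and KM13, each above every wild-type male, and at 45.7 CPM in KM01, below every one. Wild-type males ran from 140 to 362 CPM with a median of 302 CPM. Knockout females ran from 166 to 477 CPM with a median of 325 CPM, against 399, 326, 263, 251 and 211 CPM in wild-type females. With all libraries Corin differed by 0.03 ± 0.40 in males (limma adjusted p = 0.981), and without KM01 by 0.66 (limma adjusted p = 0.237). Bmp10-low libraries, with lower medians of Corin as described below, were 1 of 5 knockout males (KM01) and 3 of 7 wild-type males. Without KM01 the difference in males thus sets Bmp10-high knockouts against wild types of both classes. In the Bmp10-high libraries of both sexes Corin differed by 0.31 ± 0.13. In females it differed by 0.17 ± 0.40 (limma adjusted p = 0.941).

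Mme (chr3:63241537-63386030, plus strand), the degrading protease, was the least abundant of the 7 and the only one whose difference was negative in the fits for both sexes, for males and for females. In knockout males it was at 13.96, 7.41, 7.06, 1.87 and 1.60 CPM, against 2.38 to 35.1 CPM with a median of 11.2 CPM in wild-type males. In knockout females it was at 5.97 to 18.3 CPM with a median of 12.6 CPM, against 25.4, 20.9, 15.2, 7.74 and 6.38 CPM in wild-type females. Wild-type males covered a 14.7-fold range, so all knockout males but KM03 and KM01 fell inside it. Mme differed by -1.24 ± 0.51 in males (limma unadjusted p = 0.0218, adjusted p = 0.269) and by -0.39 ± 0.49 in females (limma adjusted p = 0.885). Without KM01 the difference in males was -0.94 (limma adjusted p = 0.350). With a term for the name set, which leaves KM13 as the only knockout male, the difference was -1.13. Bmp10-low libraries, with higher medians of Mme as described below, were 1 of 5 knockout males and 3 of 7 wild-type males. Epicardial markers differed between the same groups: Krt8, Lrrn4, Upk3b and Krt19 fell in knockouts (log2 -2.27, -1.96, -1.82 and -1.62, limma adjusted p = 0.00129, 8.12e-04, 0.0243 and 0.0313). With a term for the name set, the knockout side in males rests on KM13 alone. The differences were then -1.29 for Krt8, -1.33 for Lrrn4, -0.25 for Upk3b and -0.23 for Krt19. The 6 epicardial markers summed to 153 to 260 CPM in the 4 knockout males of 1 name set (MaleKOAtrium; KM01, KM03, KM05 and KM07) and to 750 CPM in KM13, against 716 to 1108 CPM in wild-type males, with none at 0. By this sum KM13 lay inside the wild-type range, with Mme at 7.06 CPM. By the mean log2 of CPM plus 1 over the 6 markers, KM13 (6.07) lay below WM7 (6.29), the lowest wild-type male. Fibroblast markers (6 of 6) summed to 2390 to 2901 CPM in knockout males and to 2526 to 4180 CPM in wild-type males. Erythroid markers (5 of 5 measured, none at 0) summed to 2057 to 5477 CPM in knockout males and to 381 to 2939 CPM in wild-type males, with a median log2 difference of 1.60, 5 of 5 with an unadjusted p under 0.05 and 0 of 5 called by limma. The part of any of these in the level of Mme was not tested.

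Over both sexes, fitted with a term for the name set, the differences were 0.24 ± 0.23 for Nppa, 0.37 ± 0.54 for Nppb, -0.43 ± 0.28 for Npr1, 0.20 ± 0.28 for Npr2, -0.07 ± 0.35 for Npr3, 0.38 ± 0.43 for Corin and -0.76 ± 0.52 for Mme. The male side of this fit rests on KM13, since the other 4 knockout males make up a name set of their own. Without the set term the differences of Nppa, Npr1 and Corin were 0.44, -0.08 and 0.08, and limma called 0 of 7. Nppa (unadjusted p = 0.0145, adjusted p = 0.598) and Mme (unadjusted p = 0.0489, adjusted p = 0.654) were then 2 of 7 with an unadjusted p under 0.05, which 7.64% of all genes had. With the term, limma called 0 of the 7 genes, where 0.00692% of all genes tested were called, and the smallest adjusted p was 0.952. With the term 0 of 7 also had an unadjusted p under 0.05, which 5.61% of all genes had. In males 0 of 7 were called, where 0.429% of all genes were, and 1 of 7, Mme, had an unadjusted p under 0.05, which 13.2% of all genes had. In females 0 of 7 were called, where 0.0138% of all genes were, and 0 of 7 had an unadjusted p under 0.05, which 4.54% of all genes had. The difference between the sexes called 0 of 7, with 0% of all genes called, and 1 of 7, Npr1, had an unadjusted p under 0.05, which 9.17% of all genes had. EdgeR and DESeq2 on the recovered reads also called 0 of 7 in each of these fits. The median of the 7 differences was 0.20 over both sexes, 0.03 in males and 0.29 in females, where the medians of all genes were 0.004, 0.05 and 0.12. Knockout and wild-type values were separate for 0 of 7 genes in males and 0 of 7 in females, where 1.62% and 0.118% of all genes were separate.

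For Nppa over both sexes the interval of the log2 difference ran from -0.23 to 0.71, and for Npr3 from -0.78 to 0.64. It was widest for Mme, from -1.84 to 0.32, and for Nppb, from -0.75 to 1.49. The authors' deposited table gives a DESeq2 p-value of 0.0330 for Mme, 0.0439 for Nppa, 0.0474 for Npr2 and 0.440 to 0.864 for the other 4 genes. In the authors' deposited table the log2 ratio, wild type over knockout, is 0.75 for Mme, -0.38 for Nppa and -0.37 for Npr2. The sources used here do not say whether those p-values are adjusted or which design gave them.

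**Figure D3:**
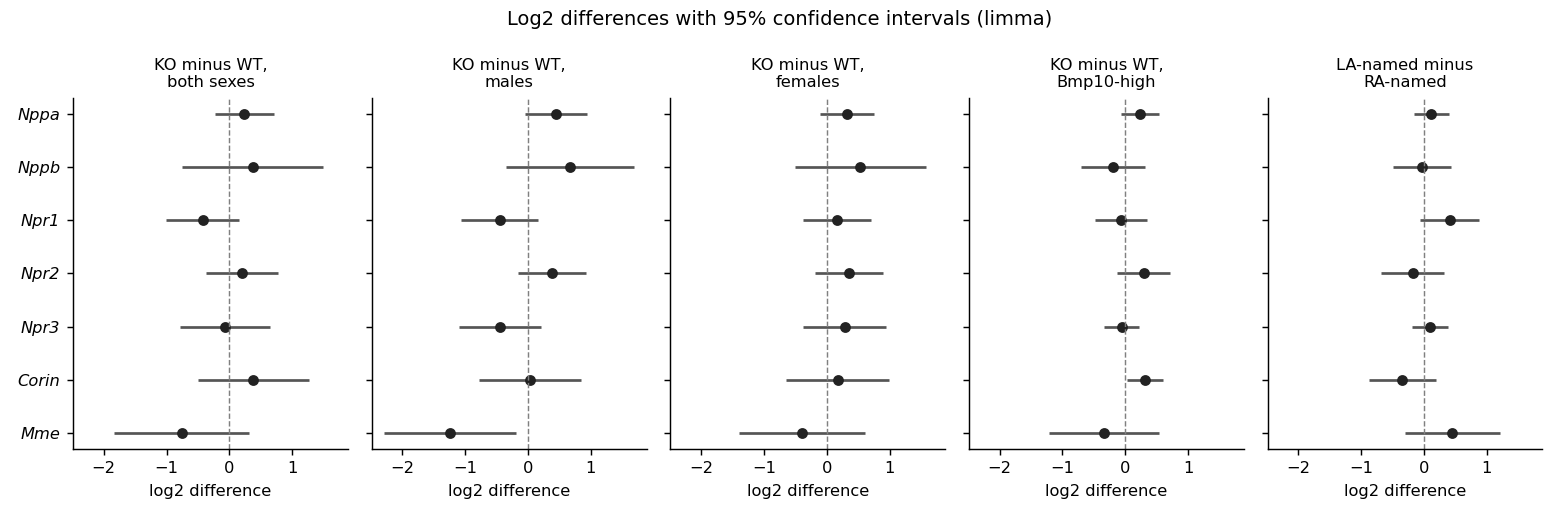
Log2 differences of the 7 genes with 95% confidence intervals from limma, in 5 comparisons: knockout minus wild type over both sexes, in males, in females and in Bmp10-high libraries, and LA-named minus RA-named libraries. The intervals for Mme in males (-2.29 to -0.19) and for Corin in Bmp10-high libraries (0.03 to 0.60) lie on 1 side of 0, and neither passed the adjustment over all genes.

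Sorting the libraries by Bmp10 shows how much of the spread lay between the classes. Since the classes come from measured values, they are described with no test. Corin was lower in Bmp10-low than in Bmp10-high libraries of both genotypes, with medians of 221 CPM (n = 5) and 413 CPM (n = 8) in knockouts and of 211 CPM (n = 5) and 316 CPM (n = 7) in wild type. It was below every Bmp10-high library of its genotype in 4 of 5 Bmp10-low knockouts and in 4 of 5 Bmp10-low wild types. Npr2 followed the same order, at medians of 35.9 and 52.7 CPM in knockouts and of 29.5 and 45.2 CPM in wild type. In wild type the 5 Bmp10-low values of Npr2 stayed within 27.2 to 32.7 CPM, against 29.3 to 58.6 CPM in the 7 Bmp10-high ones.

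Mme ran the other way. Its median was 16.1 CPM in Bmp10-low and 7.15 CPM in Bmp10-high knockouts, 2.25 times as high, and 25.4 CPM in Bmp10-low and 7.74 CPM in Bmp10-high wild types, 3.28 times as high. In knockouts 4 of 5 Bmp10-low libraries (15.3 to 18.3 CPM) were above all 8 Bmp10-high ones, and KM01 (1.60 CPM) was below them all. In wild type the Bmp10-high WM4, at 31.7 CPM, was higher than all Bmp10-low libraries but WM1 (35.1 CPM). Npr1 was 1.36 times as high in the Bmp10-low knockouts and 1.32 times as high in the Bmp10-low wild types by medians, with wide overlap. Nppa, Nppb and Npr3 had median ratios, Bmp10-low over Bmp10-high, of 1.11, 0.910 and 0.922 in knockouts and of 1.14, 0.744 and 0.842 in wild type.

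Summed atrial muscle and epicardial markers had higher medians in Bmp10-low than in Bmp10-high libraries, with overlapping ranges. For atrial muscle the medians were 14823 and 10360 CPM in knockouts, and 13804 and 10467 CPM in wild type. For epicardial markers they were 650 and 432 CPM in knockouts, and 980 and 716 CPM in wild type. Atrial muscle markers (4 of 4) summed to 11728 to 17884 CPM in Bmp10-low and 8497 to 15054 CPM in Bmp10-high knockouts, and to 2940 to 16471 CPM in Bmp10-low and 9319 to 11916 CPM in Bmp10-high wild types. Epicardial markers summed to 153 to 860 CPM in Bmp10-low and 241 to 750 CPM in Bmp10-high knockouts, and to 132 to 1108 CPM in Bmp10-low and 437 to 902 CPM in Bmp10-high wild types. None of the atrial muscle or epicardial markers was at 0. The part of this in the levels of Corin, Npr2 and Mme was not tested.

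**Figure D4:**
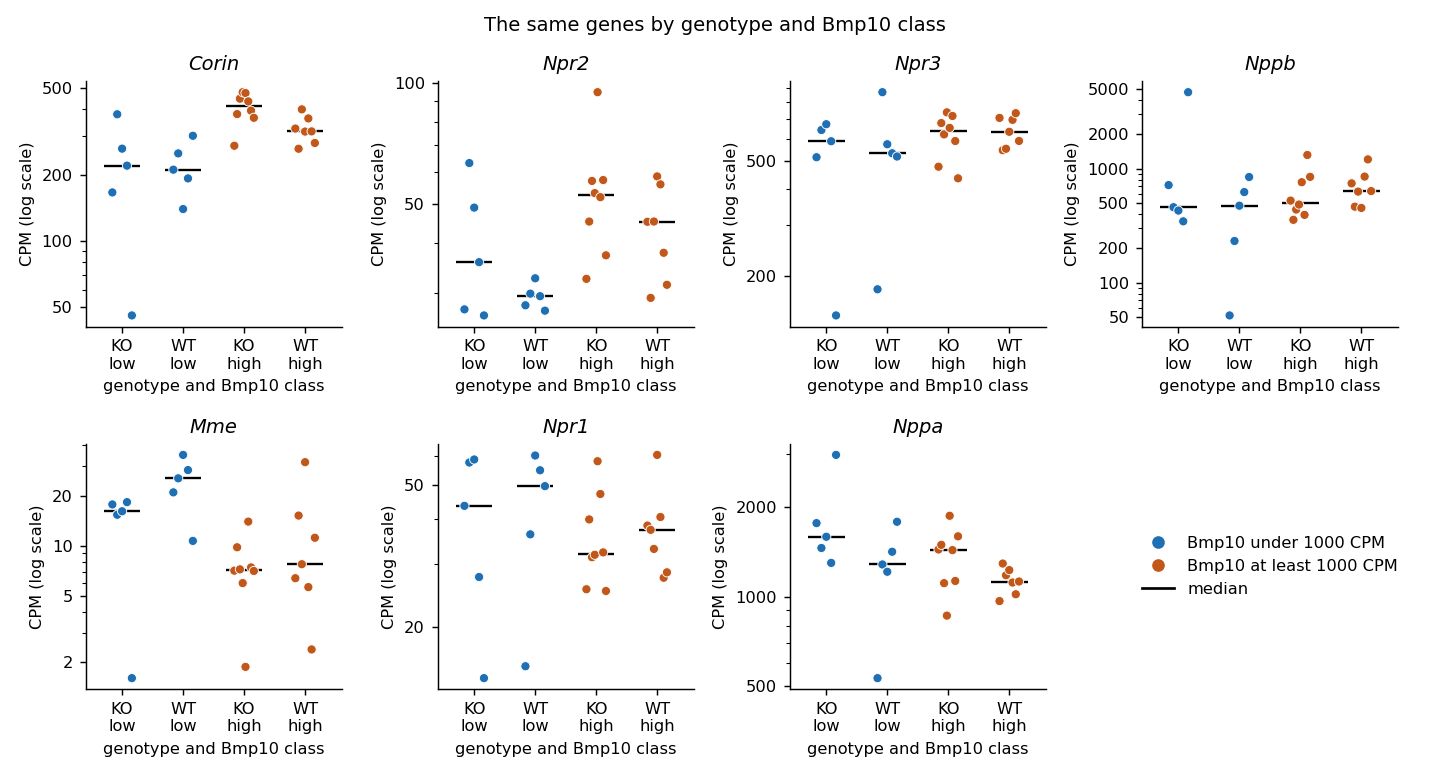
CPM of each gene (log scale) in libraries with Bmp10 under 1000 CPM (low, blue) and at least 1000 CPM (high, orange), with knockouts (KO) left of wild type (WT) in each class and black lines at the medians. Corin and Npr2 have lower medians and Mme a higher median in the low class of both genotypes.

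Within the 15 Bmp10-high libraries, Corin, Npr2 and Nppa had the highest differences, each without a call. Nppa was at 863 to 1864 CPM with a median of 1434 CPM in 8 knockouts, against 966 to 1290 CPM with a median of 1123 CPM in 7 wild types. It was above every wild-type library in 5 of 8 knockouts and below every one in 1 (KF21). Corin was at 272 to 477 CPM with a median of 413 CPM in knockouts, against 263 to 399 CPM with a median of 316 CPM in wild type, and 4 of 8 knockouts were above all wild types. Corin differed by 0.31 ± 0.13 (limma unadjusted p = 0.0317, adjusted p = 0.759) and Nppa by 0.24 ± 0.14 (limma adjusted p = 0.805).

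The other 5 genes differed by -0.34 to 0.29 in these libraries, with Npr2 at 0.29 ± 0.20 (0.03 with a name set term), Nppb at -0.19 ± 0.24 and Mme at -0.34 ± 0.41. Limma called 0 of 7, where 0.0138% of all genes were called, and 1 of 7, Corin, had an unadjusted p under 0.05, which 6.4% of all genes had. EdgeR and DESeq2 called 0 of 7 there. With a name set term the male side of this fit rests on KM13 alone. Epicardial markers differed by a median of -0.71 in these libraries, with 0 of 6 called and 6 of 6 below 0, and their part in the results was not tested. Bmp10-low knockouts and wild types, 5 of each, had Nppa medians of 1586 and 1281 CPM, Corin medians of 221 and 211 CPM and Mme medians of 16.1 and 25.4 CPM. Knockout and wild-type values were separate for 0 of 7 genes in either class, where 0.0553% of all genes were separate among Bmp10-high and 0.325% among Bmp10-low libraries.

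The names LA and RA give 2 groups of 6 libraries that no measured value defined. Npr1 had a median of 52.2 CPM (39.97 to 60.2) in LA-named and 35.2 CPM (25.3 to 60.5) in RA-named libraries, a difference of 0.41 ± 0.22 with terms for genotype and sex (limma unadjusted p = 0.0856, adjusted p = 0.845). Mme had medians of 16.5 and 11.5 CPM in LA-named and RA-named libraries, and Corin of 247 and 294 CPM. Mme differed by 0.45 ± 0.35 (limma adjusted p = 0.856) and Corin by -0.34 ± 0.25 (limma adjusted p = 0.853). Nppa differed by 0.11 ± 0.13 and Nppb by -0.03 ± 0.21. Limma called 0 of 7, where 0% of all genes were called, and 0 of 7 had an unadjusted p under 0.05, which 5.51% of all genes had. EdgeR and DESeq2 called 0 of 7 as well. Without KF17 and KF18, whose Bmp10 went against their names, 80 genes were called in all and still 0 of 7. The differences were then 0.59 for Npr1 (limma adjusted p = 0.273), 0.68 for Mme (limma adjusted p = 0.559) and -0.53 for Corin (limma adjusted p = 0.510).

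Among 21 pairs of the 7 genes in the Bmp10-high libraries, Npr2 and Corin were the pair whose Pearson correlation passed adjustment. The correlations were taken on CPM without rescaling, pooled over genotype and sex. Median-ratio size factors, relative to CPM, were 0.91 in KM13 and 1.18 in KM03. A factor of composition shared by libraries can thus enter these correlations, and its part was not tested. Pearson r was 0.78 (n = 15, permutation p = 6.10e-04, adjusted p = 0.0128) and Spearman rho was 0.66 (permutation p = 0.00967, adjusted p = 0.177), so the rank measure did not pass. Without KM03 and WF8, the libraries farthest from the median of Npr2, r was 0.68. Within the 6 libraries named LA or RA it was 0.57, and within the 6 named CGI 0.85. The next pairs were Npr1 with Npr2 (r = 0.67, permutation p = 0.00596, adjusted p = 0.0626; rho = 0.58, permutation p = 0.0252, adjusted p = 0.177) and Nppb with Mme (r = -0.58, permutation p = 0.0236, adjusted p = 0.165; rho = -0.62, permutation p = 0.0172, adjusted p = 0.177). Without the farthest pair of libraries r was 0.44 for Npr1 with Npr2 (WM4 and KM03 left out) and -0.56 for Nppb with Mme (KM07 and WM6 left out). In the LA or RA and CGI libraries r was 0.69 and 0.60 for Npr1 with Npr2, and -0.47 and -0.68 for Nppb with Mme.

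**Figure D5:**
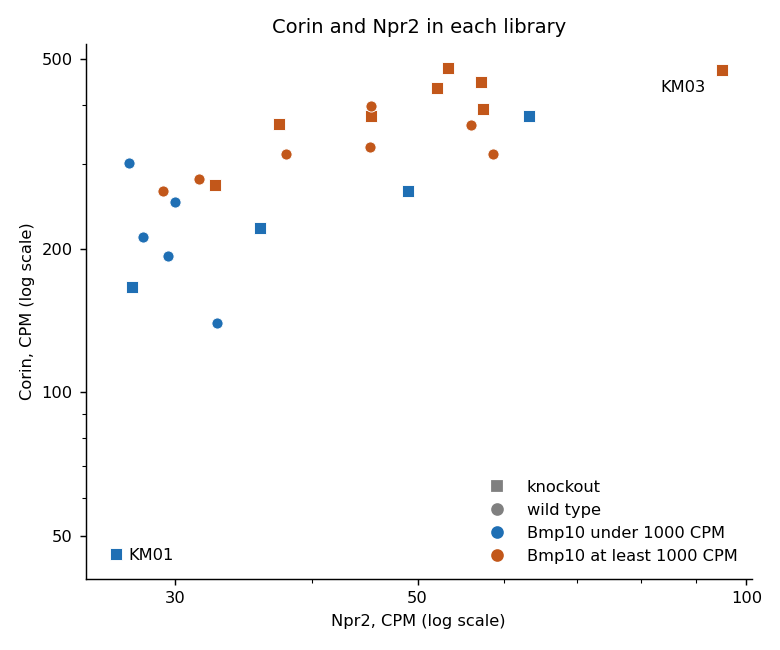
Corin against Npr2 in each library, both in CPM on log scales, with squares for knockouts, circles for wild type and colours for the Bmp10 class. The 15 Bmp10-high libraries run from 29.3 CPM of Npr2 and 263 CPM of Corin to 94.9 and 473 CPM (KM03), and KM01 (26.5 and 45.7 CPM) lies far below the rest.

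Per kilobase of exon the order of the 7 genes was Nppa (median 1491 CPM), Nppb (672), Npr3 (62.7), Corin (58.4), Npr2 (8.11), Npr1 (7.82) and Mme (0.926). Nppa was above Nppb in 22 of 25 libraries, and Npr3 above Corin in 15 of 25, so Npr3 and Corin changed places often. Nppb was above Npr3, Corin above Npr2 and Npr1 above Mme in all 25. With the longest transcript in place of the union of exons, the mean of Npr3 was 84.8 in place of 62.3 CPM per kilobase. Antisense genes lie over exons of Nppa (Gm13054, 0.445 to 45.9 CPM, at most 2.61% of Nppa) and of Npr2 (Gm12473, 0.211 to 3.78 CPM, at most 6.06% of Npr2). The libraries are stranded, but the sources used here do not say whether the counting used strand, so reads of such a pair cannot be told apart.

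For each gene, the 3 others whose log2 levels followed it most closely over the 25 libraries were taken from 9723 genes with a mean of at least 10 CPM. These correlations share library depth and composition and are descriptions. Corin was followed by Dsg2, a desmosomal cadherin (r = 0.97), Txlnb (0.95) and Cnst (0.94), and in the 23 libraries other than KM01 and WF10 r was 0.93, 0.88 and 0.86. Npr2 was followed by Med25 (r = 0.96), Usp19 (0.94) and Cul9 (0.94), and these held at 0.96, 0.94 and 0.95 in the 23 libraries. Npr1 was followed by Itpr3, a calcium release channel of internal stores (r = 0.93), Espn (0.91) and Spock2 (0.89), which were at 0.91, 0.86 and 0.78 in the 23. Mme was followed by Scara5, a scavenger receptor (r = 0.90), Mgl2 (0.80) and Xpnpep2 (0.77), at 0.90, 0.81 and 0.79 in the 23.

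For the peptide genes and Npr3 the likeness was weaker in the 23 libraries other than KM01 and WF10. Nppb was followed by Rgs19, Efhd2 and Snhg5 (r = 0.91, 0.91 and 0.90), which were at 0.65, 0.66 and 0.61 without KM01 and WF10. Nppa was followed by Hmox1, which encodes heme oxygenase (r = 0.83), Psat1 (0.81) and Ndufb2 (0.80), at 0.65, 0.61 and 0.71 without them. Npr3 was followed by Ppm1f, Rabgap1l and Atl2 (r = 0.94, 0.93 and 0.93), at 0.75, 0.67 and 0.49 without them. In the 15 Bmp10-high libraries, which also leave out KM01 and WF10, r with Npr3 was 0.95, 0.70 and 0.67.

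Other genes of the pathway were read in 4 lists, and limma called 0 of their measured members in each of the 6 fits. Of 10 other ligands and processing enzymes 8 were measured, and Nppc and Ostn were not analysed here. In males their median difference was -0.11, and Dpp4, a protease that trims peptide ends, had the smallest p (-1.01 ± 0.26, limma unadjusted p = 4.99e-04, adjusted p = 0.0695). Ide, a protease that degrades insulin and natriuretic peptides, had the smallest p in females (-0.57 ± 0.26, limma adjusted p = 0.853). Of 18 genes of cyclic GMP signalling 15 were measured, with a median difference of -0.01 in males and 0.03 in females. Pln, the phospholamban gene of calcium reuptake (-0.997 ± 0.35 in males, limma adjusted p = 0.188), and Pde3a, a phosphodiesterase (-0.44 ± 0.21 over both sexes, limma adjusted p = 0.884), had the smallest p in those fits.

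All 16 listed regulators of the peptide genes were measured. In males 16 of 16 were above 0, as were 56.6% of all genes, with a median of 0.34 where that of all genes was 0.05. In females 9 of 16 were, as were 71.2% of all genes, with a median of 0.01 where that of all genes was 0.12. Over both sexes, with the set term, 6 of 16 were, as were 50.6% of all genes, with a median of -0.09. The summed level of the regulators was 1507 to 1794 CPM in KM03, KM05 and KM07 and 821 and 750 CPM in KM13 and KM01, against 673 to 1366 CPM in wild-type males. Tbx3, a repressor of Nppa in the conduction system, was at 1.15 ± 0.46 in males (limma adjusted p = 0.257). Mef2c, a muscle transcription factor, was at -0.49 ± 0.18 in females (limma adjusted p = 0.853). In Bmp10-high libraries Nkx2-5, a cardiac transcription factor that activates Nppa, was at 0.50 ± 0.18 (limma unadjusted p = 0.0134, adjusted p = 0.699). Of 10 neighbours of Nppa and Nppb on chromosome 4, 8 were measured. All 8 were above 0 in males, in females and in Bmp10-high libraries, as were 56.6%, 71.2% and 57.7% of all genes, with medians of 0.23, 0.23 and 0.11 where those of all genes were 0.05, 0.12 and 0.04. Over both sexes 6 of 8 were above 0, and between LA and RA names 1 of 8. In males the smallest p among them was that of Plod1, a collagen-modifying enzyme (0.43 ± 0.19, limma adjusted p = 0.326). Of 12 lists of region and cell markers, limma called 4 of 6 epicardial genes in males and 0 in every other list and fit.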

How the data were processed

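The submitters' processing notes name HISAT2, HTSeq, DESeq2 and the build mm10, with no versions. The deposited values are CPM, although the header calls them FPKM: in each library all values (100%) were whole multiples of what 1 read is worth, within 0.001 reads, which gave back the authors' read counts (2246887 to 8098602 per library, median 5385966). A count of 3 reads is 0.370 CPM in the deepest and 1.34 CPM in the least deep library, for counting error only. The authors' deposited p-value and log2 ratio columns are quoted as such. Of 14467 lines, 10 were left out (5 symbols listed more than once). On these, the libraries KM01, KM03, KM05 and KM07 held equal values on both lines and the others did not, and the sources used here do not say whether those 4 were counted with the same annotation. The 2 columns of the authors' averages were not used.

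Library names fall into 3 sets (LA or RA 12 libraries, CGI 9, MaleKOAtrium 4), whose meaning the labels do not give. Limma 3.58.1 in R 4.3.3 (trend) was fitted to log2 of CPM plus 1, which understates the change of low genes, over 14457 genes with at least 1 CPM in at least 5 libraries (0 genes removed). Genes were called at a Benjamini-Hochberg adjusted p under 0.05 over all genes. Knockouts were set against wild type over both sexes (mean of the female and male effects), in females and in males, each with all 25 libraries in the fit, and in the 15 Bmp10-high libraries. The other 2 of the 6 comparisons were LA against RA names (12 libraries) and the female minus the male difference. A term for the name set was used over both sexes, in females and for the female minus the male difference. It was not used in males, where 4 of 5 knockouts make up the MaleKOAtrium set, so that set and genotype cannot be told apart. EdgeR 4.0.16 and DESeq2 1.42.0 were run on the recovered reads. Correlations used 100000 permutations, two-sided. The fits were tested on simulated counts. Pseudocounts, filters, scaling, terms and left-out libraries were also varied.

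Coordinates are from GENCODE M21 on GRCm38, in which 99.1% of symbols were found, and promoters from RefSeq on GRCm38.p6, which held all 7 genes. The genes named are the 7 members, Pam and Bmp10, list genes by smallest p in some of the fits and the 3 closest genes to each member. The members, the gene lists and the tests were chosen with earlier results of these data known. Single values of some list genes are not reported here.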

Additional observations from a re-analysis of the deposited data

Results flagged for a closer look

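Of 28 combinations of gene and group examined for a library far from the rest, 3 stood out, and chance alone picks about 1 in 20. Nppb in knockout males was at 4686 CPM in KM01, where the other 4 were at 393 to 1319 CPM. Corin in knockout males was at 45.7 CPM in KM01, where the other 4 were at 365 to 473 CPM. Npr1 in wild-type females was at 15.6 CPM in WF10, where the other 4 were at 33.1 to 38.4 CPM. These flags were taken on CPM without rescaling. The median-ratio size factor, relative to CPM, was 0.63 in WF10 and 0.98 to 1.11 in the other 4, and the flag of Npr1 depends on that scaling. KM01 and WF10 are also the 2 least deep libraries, with 18.6% and 30.4% of CPM from mitochondrial genes, and their part in these values was not tested.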

How the results depend on the processing

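Across 1281 refits of the 42 log2 differences of the 7 genes, 0 passed an adjusted p of 0.05 and 45 changed sign, 23 of them on leaving out 1 library. The number of genes called in all moved more. In males limma called 62 genes, against 105 with a pseudocount of 5, 158 with median-ratio scaling, 187 with edgeR, 581 with DESeq2, 1 with a name set term, 106 with a Bmp10 class term and 23 (without KM01) to 548 (without KM13) on leaving out 1 library. Over both sexes it called 1, against 2 with median-ratio scaling, 7 with edgeR, 123 with DESeq2, 2 without the set term, 49 without KM01 and WF10, and 8 without both of these libraries and the set term. In females it called 2, against 1 with median-ratio scaling, edgeR or no set term, 24 with DESeq2, and 1 to 3 on leaving out 1 library. In Bmp10-high libraries it called 2, against 53 with DESeq2, 6 with a set term and 2 to 45 (without KM13) on leaving out 1 library. Between LA and RA names it called 0, against 4 with DESeq2, 80 without KF17 and KF18 and 0 to 1 on leaving out 1 library. For the difference between the sexes it called 0, against 10 with edgeR, 242 with DESeq2, 23 without the set term, 2 with a Bmp10 class term and 6 without KM01 and WF10. Leaving out KM01 and WF10 together, or KF17 and KF18, was chosen after seeing the data. The causes of these shifts were not tested.

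Signs changed for differences from -0.41 (Corin, between the sexes) to 0.54 (Nppb in females), and the cause was not tested. Corin in males (0.03) was -0.0071 with median-ratio scaling, -0.19 with a Bmp10 class term and -0.17 to 0.66 on leaving out 1 library. In females, leaving out WF10 took Nppb to -0.043, Npr1 to -0.00097 and Npr3 to -0.070. On leaving out 1 library the highest values there were 0.86 for Nppb, 0.29 for Npr1 and 0.46 for Npr3, and those without WF10 the lowest. In Bmp10-high libraries Nppb (-0.19) was 0.019 with a set term, Npr1 (-0.07) was 0.021 with a Bmp10 limit of 100 CPM and -0.16 to 0.049 on leaving out 1 library, and Npr3 (-0.05) was -0.10 to 0.017 on leaving out 1. Between LA and RA names Nppb (-0.03) was 0.0036 with median-ratio scaling, 0.046 with edgeR, 0.047 with DESeq2, 0.036 without terms, 0.042 without KF17 and KF18 and -0.17 to 0.21 on leaving out 1. There Npr2 was -0.36 to 0.0066 and Npr3 -0.025 to 0.18 on leaving out 1. For the difference between the sexes Nppa (0.17) was -0.080 with median-ratio scaling, -0.059 with edgeR, -0.062 with DESeq2, -0.018 without the set term, and -0.033 to 0.32 on leaving out 1, with -0.033 also without KM01 and WF10. Nppb (0.33) was -0.14 with edgeR, -0.13 with DESeq2, -0.081 without the set term, -0.36 without KM01 and WF10, and -0.36 to 0.72 on leaving out 1. Npr2 was -0.048 without the set term, and Corin was 0.087 without it and 0.13 with a Bmp10 class term. The fits over both sexes and between the sexes could not be fitted without KM13.

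Male libraries of both genotypes share the numbers 1, 3, 5 and 7. Their deviations correlated at 0.24, -0.20, 0.25 and 0.07, and 4 such values cannot settle whether the numbers pair the samples. With the replicate block 1 gene was called in males, 0 of the 7, and Corin was at -0.050. Of the 4 numbers, 2 had their best match with their own.

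Depth limits Mme most, with 4 reads in KM01. The 95% intervals of the knockout differences reached beyond 1 or -1 in at least 1 fit for Nppb, Npr1, Npr3, Corin and Mme.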
